A study of Homo sapiens with 6 samples.

Results

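The 41 genes described here encode the working parts of the lysosome: its soluble hydrolases, cathepsins and activator proteins, its membrane proteins, the V-type proton pump, and the TFEB family of transcription factors. They were chosen by gene name for their place in the lysosome, with earlier results of these data known, and all 41 were found among the 60675 genes of the count table and passed the filter on low counts, which left 18267 genes. The table holds RNA sequencing of HEK293, an established cell line derived from human embryonic kidney. It has 3 libraries labelled control (genotype wild type) and 3 labelled MOCS2 RNAi knockdown, all grown in high-glucose DMEM with fetal bovine serum and Geneticin. Neither the RNAi construct nor whether a group was 1 clone or a pool of cells was stated in the sources used here. MOCS2 encodes both subunits of molybdopterin synthase, and the series title concerns APP fragments and sulfur amino acid breakdown.

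Lysosomes are acidic organelles in which proteins, glycans and lipids are broken down. Soluble hydrolases are made in the endoplasmic reticulum, tagged with mannose 6-phosphate and carried to the lysosome, where the V-ATPase pumps protons to keep the lumen acidic. TFEB, TFE3 and MITF are related transcription factors that bind a palindromic element called CLEAR in the promoters of many lysosomal genes, and nutrient signalling through mTORC1 on the lysosomal surface holds them in the cytoplasm.

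MOCS2 stood at 57.8, 66.6 and 65.6 CPM (read counts scaled to library size with TMM factors) in control 1, 2 and 3 and at 69.8, 58.9 and 59.9 CPM in knockdown 1, 2 and 3. The targeted transcript was therefore not lower under its label (log2 fold change -0.01 ± 0.14 (SE), adjusted p by edgeR = 0.976), and its sign turned under several settings given in the closing section. Directions below are those of the libraries labelled knockdown against control. Reads assigned to genes ranged from 17958632 to 22171106 per library. Reads outside genes were 37.5% of uniquely aligned reads in knockdown 2, against 21.5% to 25% in the other 5 libraries. Knockdown 3 was the highest of the 3 libraries labelled knockdown in 29 of the 41 genes. The labels do not say whether replicates were separate cultures, so a p-value here measures only how these samples spread, and that spread may be technical.

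Most lysosomal genes had lower mean values in the libraries labelled knockdown, but none passed the edgeR test adjusted over all genes. The log2 fold change was negative in 34 members and positive in 7, with a median of -0.33 against 0.02 over all tested genes. Over all 18267 tested genes it was negative in 8804 and positive in 9463, which also stands beside the sign counts of the role groups below. At an adjusted p of 0.05, edgeR called 0 members higher and 0 lower, and its percentage called over all genes was 0 in each direction. At an unadjusted p under 0.05, 14 members were lower, or 34.1%, where 10.6% of all tested genes were, and 2 were higher, or 4.88%, where 9.93% of all tested genes were. The 3 libraries labelled knockdown all lay below the 3 controls in 20 members, 48.8% against 14.3% of all tested genes, and all lay above them in 2, IDS and IDUA, against 12.5%. DESeq2 called 4 members lower (GLB1, NAGLU, CTSA and CTSD) with 3.21% of all genes called lower, and called 0 higher with 3.06%. Limma voom called 0 members, 0% of all genes being called in either direction. With no filter on low counts, edgeR called 5 members lower (GLB1, GAA, NAGLU, CTSA and CTSD) and 0 higher, with 2.03% and 1.6% of all genes called. Those shares are over 43251 genes, including genes of low count that the filter removes. All 41 members passed the filter, so these shares are not a like background. With the replicate number as a block it called 0 members, with 0.0712% of all genes called lower and 0.0328% higher.

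The lower values were deepest in knockdown 1 and 2. Relative to the control mean, the members' median log2 level was -0.44 in knockdown 1, -0.46 in knockdown 2 and -0.16 in knockdown 3, while the controls ran from -0.07 to 0.07. Below all 3 controls lay 30 members in knockdown 1, 33 in knockdown 2 and 23 in knockdown 3, or 73.2%, 80.5% and 56.1%, where the shares of all tested genes were 38.5%, 39% and 31.7%. Without knockdown 3, edgeR called 14 members lower and 0 higher, where 8.3% and 6.46% of all genes were called, the members' median was -0.51, and 24 were lower at an unadjusted p under 0.05 (16.4% of all genes). Without knockdown 1, 9 were lower at an unadjusted p under 0.05 (6.32% of all genes) and 0 were higher (6.08% of all genes). With knockdown 3 left out and an unadjusted p, IDS and IDUA were the 2 higher (14.7% of all genes). With any other library left out, edgeR called 0 members at the adjusted threshold. The adjusted p values without knockdown 3 given below thus depend on leaving out the library whose member median lay nearest the controls. Among members that did not pass in that fit were LIPA, SMPD1, PSAP and CLN3 (edgeR adjusted p = 0.0983, 0.0570, 0.164 and 0.0704). In whole-culture RNA, fewer cells that make a transcript and less of it per cell cannot be told apart.

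**Figure D1:**
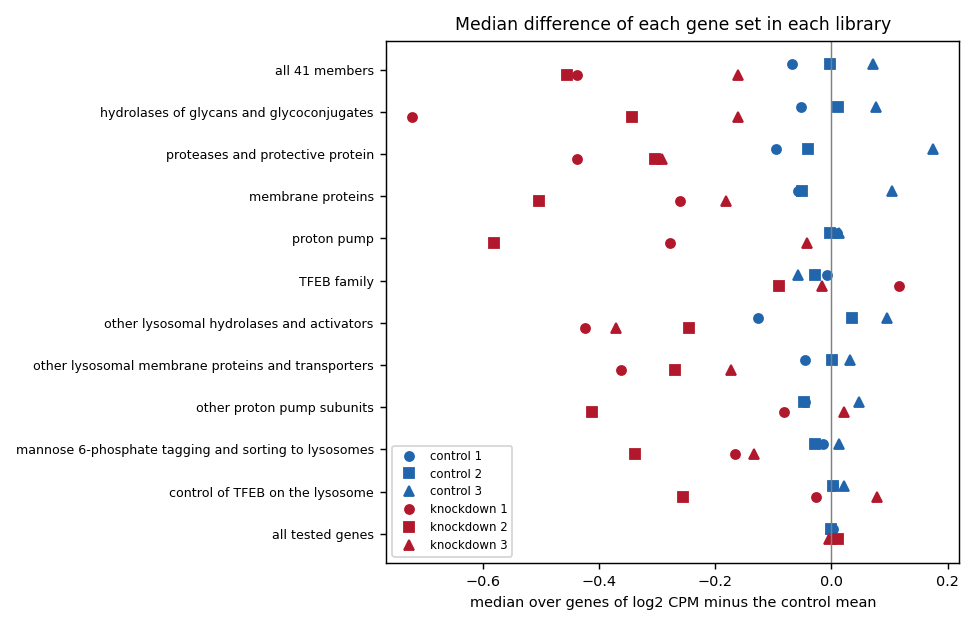
Median over the genes of each set of log2 CPM minus the control mean (x axis), for each library (blue, control; red, libraries labelled knockdown; circle, square and triangle for libraries 1, 2 and 3). The 41 members sit at -0.44, -0.46 and -0.16 in knockdown 1, 2 and 3, while all tested genes sit near 0 in all 6 libraries.

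Among the 13 hydrolases of glycans and glycoconjugates, 10 had a negative log2 fold change, and the group median was -0.47. GLB1, the beta-galactosidase that removes galactose from gangliosides and keratan sulfate (GRCh38 chromosome 3 from 32996608 to 33097230, on the minus strand), was measured at 47.3, 53.0 and 56.3 CPM in the controls and 31.6, 35.0 and 36.5 CPM in knockdown 1, 2 and 3. All 3 libraries labelled knockdown lay below the lowest control, knockdown 3 included. The log2 fold change was -0.60 ± 0.15 (SE, adjusted p by edgeR = 0.0971, by DESeq2 0.0187), the smallest edgeR p of the 41 members.

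HEXA, the alpha subunit of beta-hexosaminidase A (chromosome 15, 72340919 to 72376476), stood at 82.3, 91.9 and 93.0 CPM in the controls and 51.5, 52.4 and 74.3 CPM in the libraries labelled knockdown. Its knockdown values lay below the controls, with knockdown 3 the nearest (log2 fold change -0.58 ± 0.17 (SE), adjusted p by edgeR = 0.119, and 0.00695 without knockdown 3). NAGLU, which removes N-acetylglucosamine in heparan sulfate breakdown (chromosome 17, 42536172 to 42544449), stood at 22.2, 24.4 and 22.5 CPM against 11.5, 11.6 and 17.8 CPM. The log2 fold change was -0.76 ± 0.21 SE (adjusted p by edgeR = 0.107, by DESeq2 0.0234).

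GAA, the acid alpha-glucosidase that breaks down glycogen (chromosome 17, 80101556 to 80119879), had the widest spread of all members among the libraries labelled knockdown as a ratio of the highest to the lowest, 2.73. It stood at 36.0, 35.4 and 33.6 CPM in the controls, 11.5 and 11.96 CPM in knockdown 1 and 2, and 31.3 CPM in knockdown 3, just under the lowest control. Its log2 fold change was -0.94 ± 0.33 (SE, adjusted p by edgeR = 0.158), and -1.58 without knockdown 3 (adjusted p = 0.000587). GLA, the alpha-galactosidase A of globoside breakdown, had the highest level per kilobase of exon of this group. Its values were 98.4, 98.8 and 108 CPM in the controls and 67.2, 71.2 and 104 CPM in the libraries labelled knockdown, so that knockdown 3 lay within the controls (log2 fold change -0.33, edgeR adjusted p = 0.319, and -0.56 with adjusted p = 0.0261 without knockdown 3).

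Of the sulfatases, which remove sulfate from glycans and sulfatides, ARSA stood at 11.2, 12.1 and 13.4 CPM in the controls and 4.58, 8.50 and 8.55 CPM in those labelled knockdown (log2 fold change -0.76, edgeR adjusted p = 0.148). GALNS averaged 14.4 ± 2.76 and 9.67 ± 1.35 CPM (SD, n = 3 libraries in each group) without overlap between groups. SGSH, the heparan sulfamidase, averaged 22.1 ± 0.312 and 16.7 ± 4.48 CPM. ARSB averaged 53.7 ± 8.50 and 57.6 ± 11.4 CPM and its groups overlapped. In contrast to ARSA, GALNS and SGSH, the iduronate sulfatase IDS was higher in the libraries labelled knockdown. IDS stood at 40.7, 39.4 and 44.0 CPM in the controls and reached 54.4, 60.2 and 46.6 CPM in the libraries labelled knockdown, all above the controls (log2 fold change 0.38 ± 0.15 (SE), adjusted p by edgeR = 0.198).

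IDUA, the iduronidase that acts after IDS in dermatan and heparan sulfate breakdown, was the other member whose libraries labelled knockdown all lay higher, at 3.79, 3.67 and 2.85 CPM against 2.20, 2.16 and 2.37 CPM (log2 fold change 0.61 ± 0.27 (SE), adjusted p by edgeR = 0.229). It had the fewest reads of any member, down to 47 in 1 library, and 13.3% of its exon bases lie under SLC26A1 on the opposite strand. IDS shares 16.5% of its exon bases with the same-strand gene model AC244197.3. How the counting treated strand and shared bases was not stated, so the values of both genes are uncertain. The same holds for CTSA, where NEURL2, AL008726.1 and PLTP on the opposite strand cover 17.7%, 7.34% and 3.42% of exon bases, for PPT1, where CAP1 on the opposite strand covers 23.4%, for HEXA, where antisense AC009690.2 covers 10.1%, and for NAGLU, where same-strand AC067852.1 covers 12.6%. GUSB, the beta-glucuronidase, averaged 69.7 ± 4.72 and 58.9 ± 5.62 CPM and NEU1, the lysosomal sialidase, 150 ± 34.5 and 108 ± 35.8 CPM, with overlap in NEU1 only.

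**Figure D2:**
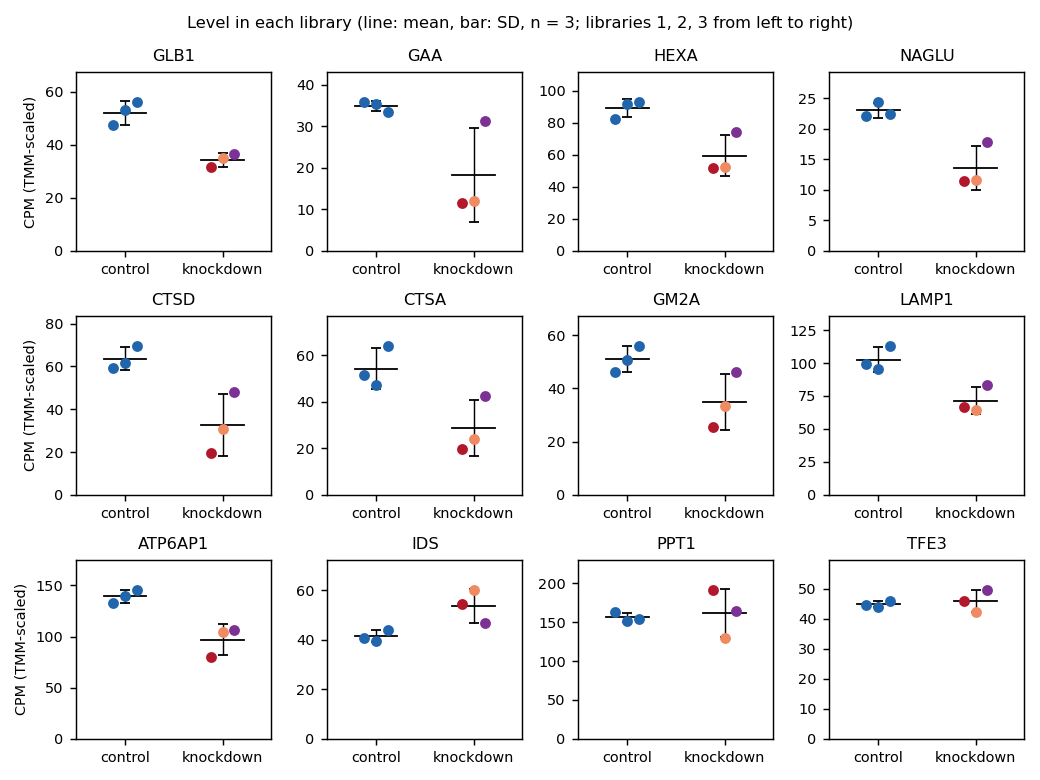
CPM of 12 members in each library (y axis from 0; blue, control; red, orange and purple, knockdown 1, 2 and 3), with the mean and SD of each group. In GLB1 the libraries labelled knockdown sit together at 31.6 to 36.5 CPM, while in GAA knockdown 3 stands at 31.3 CPM beside 11.5 and 11.96 CPM.

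Promoter sequences of GAA, CTSA, LAMP1 and ATP6V0D1 are shown as examples, from different role groups, of members that hold the CLEAR palindrome and were lower without overlap between groups. RefSeq promoter windows of 300 bases (250 before to 50 after the start, GRCh38.p14) were matched for 29 of the 41 members. The 8 bases at the centre of CLEAR, TCACGTGA, were present in 7 of these (24.1%), against 1.18% of all genes in the promoter table. The shorter E-box CACGTG, which every TCACGTGA contains, was present in 11 (37.9%), against 8.77% of all genes. The promoter table also holds genes that were not tested here, whereas every member was, so these shares are not a like background. Of tested genes with a matched promoter, 245 held TCACGTGA and 11532 did not, and 1448 held CACGTG and 10329 did not. CLEAR is known from promoters of many lysosomal genes, so its higher share in a list of lysosomal genes is not a result of these libraries. Both motifs read the same on either strand. Below, GAA lies at chr17:80101331-80101630, plus strand, CTSA at chr20:45891085-45891384, plus strand, LAMP1 at chr13:113296989-113297288, plus strand, and ATP6V0D1 at chr16:67481108-67481407, minus strand. Each is written 5′ to 3′ with the start at the base after the first 250, and capitals mark TCACGTGA and CACGTG.
GAA: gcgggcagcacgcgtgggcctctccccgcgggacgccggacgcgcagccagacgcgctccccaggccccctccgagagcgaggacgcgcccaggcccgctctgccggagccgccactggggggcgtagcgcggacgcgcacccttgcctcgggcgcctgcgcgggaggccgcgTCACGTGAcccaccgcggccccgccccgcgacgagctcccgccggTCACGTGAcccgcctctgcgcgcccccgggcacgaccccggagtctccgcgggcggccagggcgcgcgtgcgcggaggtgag
CTSA: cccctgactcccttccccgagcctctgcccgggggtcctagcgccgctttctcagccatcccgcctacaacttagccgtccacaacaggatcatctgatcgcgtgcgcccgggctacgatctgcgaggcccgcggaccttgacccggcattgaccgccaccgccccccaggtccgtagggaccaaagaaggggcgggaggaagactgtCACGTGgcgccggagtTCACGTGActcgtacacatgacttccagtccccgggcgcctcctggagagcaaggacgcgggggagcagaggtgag
LAMP1: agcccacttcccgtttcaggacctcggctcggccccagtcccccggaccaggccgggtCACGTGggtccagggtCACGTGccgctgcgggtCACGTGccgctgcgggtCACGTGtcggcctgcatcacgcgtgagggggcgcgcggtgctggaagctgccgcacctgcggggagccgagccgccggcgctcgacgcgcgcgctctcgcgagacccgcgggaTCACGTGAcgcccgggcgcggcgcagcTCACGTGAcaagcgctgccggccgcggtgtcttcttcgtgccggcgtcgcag
ATP6V0D1: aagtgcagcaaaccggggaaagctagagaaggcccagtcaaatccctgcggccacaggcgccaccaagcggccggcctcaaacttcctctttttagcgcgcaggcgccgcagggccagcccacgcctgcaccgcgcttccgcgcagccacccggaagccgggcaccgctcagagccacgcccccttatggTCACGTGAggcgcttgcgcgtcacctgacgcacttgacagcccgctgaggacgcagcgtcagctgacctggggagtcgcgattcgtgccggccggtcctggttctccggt

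GAA holds 2 copies of TCACGTGA, at -77 and -32 from the start. LAMP1 holds 2, at -29 and -2, and 4 further copies of CACGTG upstream. CTSA holds 1, at -26, with a CACGTG at -42, and ATP6V0D1 holds 1, at -60. The other members with TCACGTGA were GALNS, MCOLN1 and CLN3, and the members with CACGTG alone were NEU1, ARSB, CTSD and CD63.

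The 7 members with TCACGTGA had log2 fold changes from -0.94 to -0.27 with a median of -0.52, 5 were lower at an unadjusted p under 0.05, and 6 were lower without overlap between groups. The 22 matched members without it ran from -0.96 to 0.61 with a median of -0.24, 5 were lower at an unadjusted p under 0.05, and 8 were lower without overlap. Over all tested genes with a matched promoter, the median was -0.08 in the 245 that hold TCACGTGA and 0.00 in the 11532 that do not, with 18.8% and 11.7% of them lower at an unadjusted p under 0.05 and 22.4% and 15.6% lower without overlap. These are descriptions without a test, and a match in this window says nothing about binding. For GLB1 and SCARB2 the only window in the table starts inside the gene, 324 and 20708 bases from the RefSeq gene start. For TFEB all 3 windows do, at 615, 1163 and 1822 bases. The upstream sequence of GLB1, SCARB2 and TFEB was therefore not searched, though they are counted among the 22 members without TCACGTGA. Windows that held a motif had similar limits. The CACGTG of CD63 was found only in a window that starts 1032 bases inside the RefSeq gene start. The windows of CTSA and CLN3 lie at or near RefSeq starts, but inside the longer GENCODE spans of these genes.

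**Figure D3:**
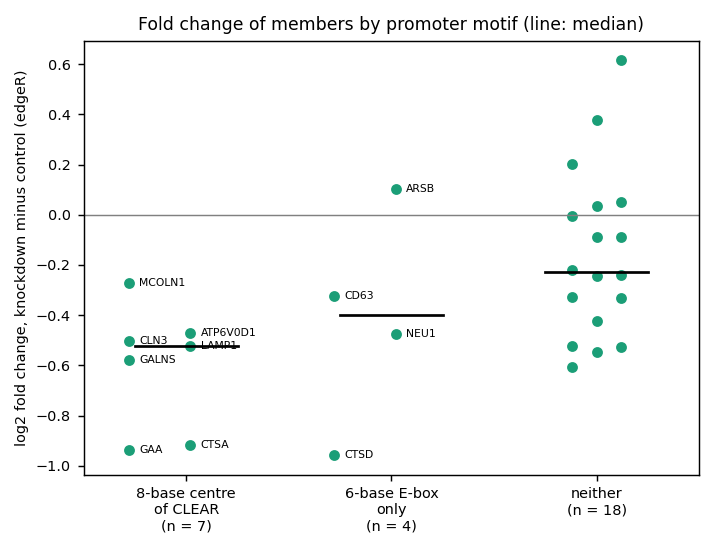
Log2 fold change (y axis, libraries labelled knockdown minus control) of the 29 members with a RefSeq promoter window, by the motif it holds, with a line at each median. The 7 members with the centre of CLEAR all lie below 0, at -0.94 to -0.27, while the members with neither motif spread on both sides of 0. The group with neither motif includes GLB1, SCARB2 and TFEB, whose windows start inside the gene. The window of CD63 that holds the E-box also starts inside the gene.

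Among the 7 proteases, all had a negative log2 fold change (median -0.24), and 3 were lower at an unadjusted p under 0.05, as were 10.6% of all tested genes. CTSD, the aspartic protease cathepsin D (chromosome 11, 1752752 to 1764573), stood at 59.4, 61.7 and 69.7 CPM in the controls and 19.5, 30.7 and 48.1 CPM in knockdown 1, 2 and 3. All knockdown values were below the controls and spread widely. Its log2 fold change, -0.96 with a standard error of 0.27, was the most negative of all members (edgeR adjusted p = 0.110, by DESeq2 0.0166). A same-strand gene model, AC068580.4, covers 41.7% of CTSD's exon bases in GENCODE, so its count is uncertain.

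CTSA, the protective protein that stabilises the beta-galactosidase GLB1 and the sialidase NEU1 in 1 complex (chromosome 20, 45890144 to 45898820), stood at 51.5, 47.5 and 64.2 CPM against 19.9, 24.0 and 42.5 CPM. The groups did not overlap (log2 fold change -0.92 ± 0.26 (SE), adjusted p by edgeR = 0.112, by DESeq2 0.0196). CTSZ, cathepsin Z, stood at 53.9, 75.9 and 76.8 CPM against 44.0, 41.03 and 58.5 CPM, where knockdown 3 overlapped control 1 (log2 fold change -0.53, edgeR adjusted p = 0.166).

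Of the other cysteine proteases, CTSL averaged 59.2 ± 3.03 and 50.2 ± 3.59 CPM without overlap, CTSB 90.0 ± 6.32 and 83.2 ± 5.53 CPM, and LGMN, the asparaginyl endopeptidase that processes cathepsins, 51.9 ± 8.81 and 48.6 ± 2.02 CPM. The 95% interval of CTSB's log2 fold change ran from -0.42 to 0.19 and that of LGMN from -0.44 to 0.26. TPP1, the tripeptidyl peptidase, averaged 9.97 ± 2.60 and 9.36 ± 3.41 CPM, and 11.6% of its exon bases are shared with the same-strand transcript AC091564.7.

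Among lipid-directed hydrolases, ASAH1, the acid ceramidase, stood at 102, 121 and 103 CPM in the controls and 60.9, 58.6 and 103 CPM in knockdown 1, 2 and 3. Knockdown 3 was level with control 1 and 3 (log2 fold change -0.55 ± 0.22 (SE), adjusted p by edgeR = 0.189, and -0.87 with adjusted p = 0.00555 without knockdown 3). LIPA, the acid lipase that frees cholesterol from its esters, stood at 72.2, 73.9 and 72.6 CPM against 47.7, 61.9 and 64.7 CPM, without overlap (log2 fold change -0.33, edgeR adjusted p = 0.259). SMPD1, the acid sphingomyelinase, stood at 9.44, 10.9 and 12.2 CPM against 7.07, 6.32 and 10.8 CPM.

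PPT1, the palmitoyl-protein thioesterase, had the highest level per kilobase of the lipid group and went neither way, at 163, 152 and 154 CPM against 192, 129 and 164 CPM (log2 fold change 0.05, 95% interval -0.32 to 0.42). Of the activator proteins, which present lipids to the hydrolases, PSAP is the precursor of the saposins and had the highest level per kilobase of all 41 members. PSAP stood at 408, 438 and 509 CPM in the controls and 371, 322 and 380 CPM in the libraries labelled knockdown, without overlap (log2 fold change -0.34 ± 0.16 (SE), adjusted p by edgeR = 0.257). GM2A, the GM2 ganglioside activator that works with hexosaminidase A, stood at 46.3, 50.8 and 56.0 CPM against 25.4, 33.3 and 46.2 CPM. Its knockdown 3 value lay just below control 1 (log2 fold change -0.55, edgeR adjusted p = 0.184, and -0.81 with adjusted p = 0.0128 without knockdown 3).

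All 6 membrane proteins had a negative log2 fold change, with a median of -0.30, and 4 were lower without overlap, as were 14.3% of all tested genes. LAMP1, an abundant glycoprotein of the limiting membrane (chromosome 13, 113297241 to 113323672), stood at 99.1, 95.7 and 113 CPM in the controls and 66.6, 64.3 and 83.4 CPM in the libraries labelled knockdown, all below the controls. Its log2 fold change was -0.52 ± 0.16 (SE, adjusted p by edgeR = 0.120, by DESeq2 0.0579). LAMP2, its relative that also serves in autophagy, stood at 184, 193 and 202 CPM against 177, 182 and 183 CPM (log2 fold change -0.09, 95% interval -0.39 to 0.21). All LAMP2 values of the libraries labelled knockdown also lay just below the controls, and the difference between the LAMP1 and LAMP2 changes was not tested.

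CLN3, a membrane protein of unsettled function, stood at 9.48, 9.39 and 9.36 CPM against 4.92, 6.80 and 8.18 CPM (log2 fold change -0.50, edgeR adjusted p = 0.257), and a same-strand gene model covers 25.2% of its exon bases. CD63, a tetraspanin of late endosomes, stood at 235, 239 and 304 CPM against 222, 177 and 222 CPM, close to but without overlap. SCARB2, the receptor that carries glucocerebrosidase to the lysosome, averaged 128 ± 15.3 and 120 ± 6.31 CPM, and MCOLN1, the calcium channel mucolipin, 20.3 ± 3.30 and 16.8 ± 3.42 CPM. Both overlapped between groups.

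In 2 of the 6 proton pump genes, every library labelled knockdown lay below every control, as in 14.3% of all tested genes. ATP6AP1, an accessory subunit of the membrane sector (chromosome X, 154428632 to 154436516), stood at 133, 140 and 146 CPM in the controls and 79.9, 104 and 107 CPM in the libraries labelled knockdown. ATP6V0D1, the d subunit of the membrane sector, stood at 67.5, 63.0 and 70.2 CPM against 49.0, 40.5 and 55.4 CPM. The groups were thus apart in both genes (log2 fold changes -0.52 and -0.47, standard error 0.16 in each, edgeR adjusted p = 0.120 and 0.143).

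Subunits of the cytosolic sector overlapped between groups and were lowest in knockdown 2. ATP6V1H stood at 42.7, 46.7 and 38.6 CPM against 34.8, 20.8 and 38.7 CPM. The catalytic subunit ATP6V1A stood at 121, 132 and 126 CPM against 105, 70.3 and 145 CPM, and ATP6V1B2 at 94.2, 86.4 and 80.6 CPM against 100, 63.9 and 106 CPM. Knockdown 2 was the lowest of the 6 libraries in each of these 3 genes. It is also the library with 37.5% of reads outside genes, whose part in these values was not tested. The largest membrane subunit, ATP6V0A1, averaged 97.2 ± 8.89 and 96.8 ± 10.98 CPM, and the sign of its small difference turned with the scaling.

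No member of the TFEB family stood apart between groups. TFEB stood at 6.65, 5.39 and 5.64 CPM in the controls and 7.46, 7.07 and 5.80 CPM in the libraries labelled knockdown, TFE3 at 44.6, 43.9 and 45.9 CPM against 45.8, 42.1 and 49.6 CPM, and MITF at 11.9, 15.3 and 12.3 CPM against 14.2, 9.51 and 10.2 CPM. Groups overlapped in all 3 genes. The 95% intervals of the log2 fold change were -0.30 to 0.70 for TFEB, -0.28 to 0.34 for TFE3 and -0.70 to 0.26 for MITF. Per kilobase of exon, TFE3 was the most abundant of the family in the controls, at 10.5 CPM per kilobase, against 1.83 for MITF and 1.04 for TFEB. These factors are controlled largely by phosphorylation and location in the cell, which RNA counts do not measure.

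**Figure D4:**
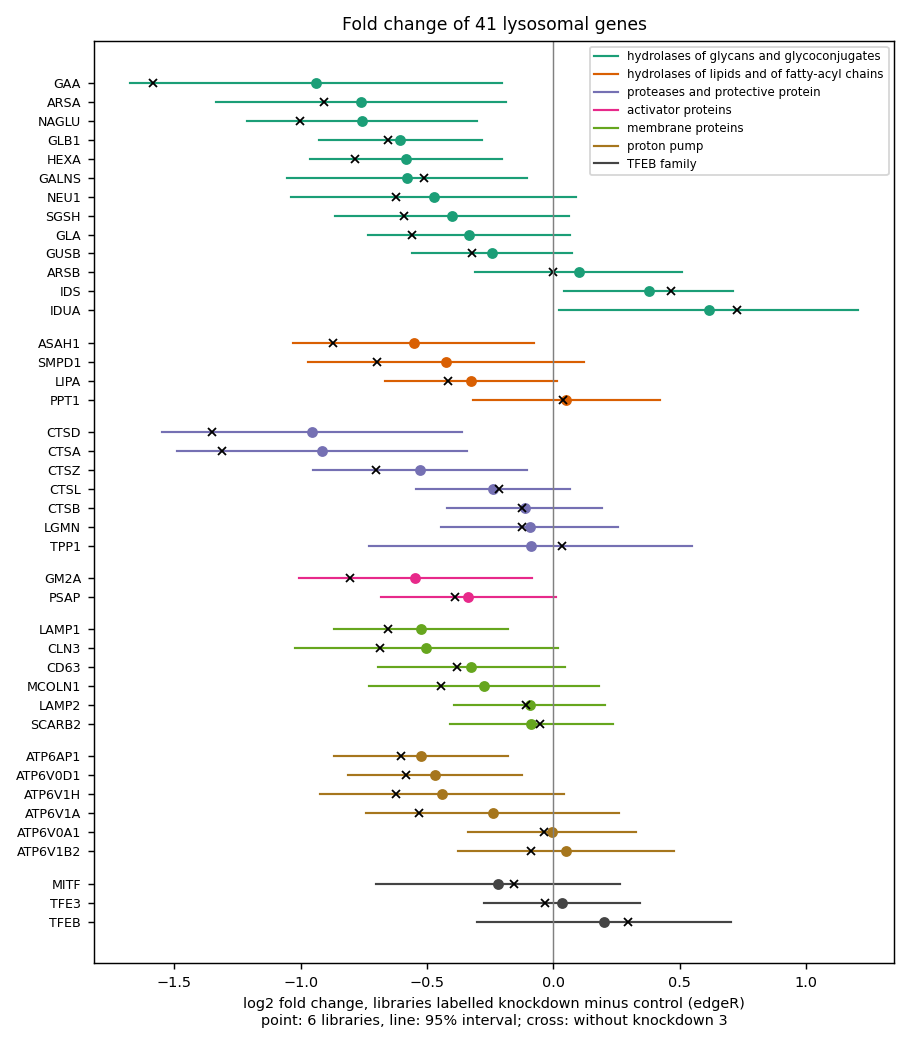
Log2 fold change of each of the 41 members (x axis, libraries labelled knockdown minus control, edgeR) with its 95% interval, coloured by role. Crosses give the value without knockdown 3, which for GAA moves from -0.94 to -1.58, while the TFEB family lies on both sides of 0.

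Other genes of the same pathway, 96 in 5 lists, were fitted in the same way, and edgeR called 0 of the 95 tested at an adjusted p of 0.05. The counts of each list stand beside 10.6% of all tested genes lower and 9.93% higher at an unadjusted p under 0.05. Of the other lysosomal hydrolases and activators, 9 of 23 tested were lower and 0 higher at an unadjusted p under 0.05, with a median of -0.35. AGA, the aspartylglucosaminidase, averaged 13.1 ± 1.90 and 6.61 ± 0.948 CPM (log2 fold change -0.99, edgeR adjusted p = 0.0846), and FUCA1, the alpha-fucosidase, 38.9 ± 2.71 and 24.96 ± 1.42 CPM (-0.64, adjusted p = 0.0895). Both were also below all controls in knockdown 3. ACP5 and CTSS, which had the smallest p among those with a positive sign, averaged 0.659 ± 0.521 and 1.08 ± 0.825 CPM, and 1.11 ± 0.458 and 1.43 ± 0.0442 CPM.

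Of 21 other membrane proteins and transporters, 3 were lower and 0 higher at an unadjusted p under 0.05 (median -0.27), a share near the 10.6% of all tested genes. TMEM175, a lysosomal potassium and proton channel, averaged 8.12 ± 0.537 and 3.84 ± 1.12 CPM (log2 fold change -1.08, edgeR adjusted p = 0.0971), and NPC2, the cholesterol-binding protein of the lumen, 70.6 ± 19.9 and 43.9 ± 8.85 CPM (-0.68, adjusted p = 0.137). CD164 and ABCB9 had positive log2 fold changes of 0.08 each. Of 15 other proton pump genes, 1 was lower and 1 higher (median -0.15). The lower was ATP6AP2, at 117 ± 6.63 and 94.1 ± 10.1 CPM, and ATP6V1F had a log2 fold change of -0.26. The higher was ATP6V0D2, an alternative d subunit, which stood at 0.539, 0.539 and 0.604 CPM in the controls and 2.54, 1.81 and 0.844 CPM in those labelled knockdown (log2 fold change 1.61, edgeR adjusted p = 0.107), and ATP6V0E1 followed with 91.0 ± 5.74 and 108 ± 8.15 CPM.

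Of 15 genes of mannose 6-phosphate tagging and sorting, 5 were lower and 0 higher at an unadjusted p under 0.05 (median -0.19), against 10.6% and 9.93% of all tested genes. SORT1, the sorting receptor sortilin, averaged 214 ± 18.4 and 149 ± 48.8 CPM and AP1S1, an adaptor subunit, 35.2 ± 7.76 and 21.99 ± 5.26 CPM, whereas AP1M1 had a log2 fold change of 0.26 and M6PR, a mannose 6-phosphate receptor, averaged 187 ± 4.96 and 197 ± 26.7 CPM. Of 21 genes that control TFEB on the lysosome, 4 were lower and 1 higher (median -0.06) by the same measure. LAMTOR4, a subunit of the Ragulator scaffold, stood at 31.7, 34.8 and 36.6 CPM against 12.9, 15.6 and 33.1 CPM, and LAMTOR2 averaged 21.2 ± 3.32 and 13.9 ± 3.35 CPM. YWHAG, a 14-3-3 protein of the family that holds TFEB in the cytoplasm, averaged 234 ± 14.1 and 304 ± 46.0 CPM, and RHEB, the activator of mTORC1, 122 ± 11.8 and 147 ± 16.9 CPM. Without knockdown 3, edgeR called 19 genes of the 5 lists lower and 1 higher, where 8.3% and 6.46% of all genes were called.

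Of 9 macrophage and microglia markers, cells rich in lysosomes, PTPRC, CSF1R, AIF1, TYROBP and FCGR3A stayed under 1 CPM in all 6 libraries. The summed level of all 9 ran from 3.73 to 6.16 CPM in the controls and 5.22 to 9.04 CPM in the libraries labelled knockdown. CD14 averaged 1.13 ± 0.499 and 1.81 ± 0.702 CPM, CD163 0.396 ± 0.212 and 0.884 ± 0.587 CPM, and ITGAM 0.603 ± 0.307 and 0.948 ± 0.521 CPM. LYZ averaged 2.76 ± 0.706 and 2.51 ± 0.0544 CPM. Groups overlapped in CD14, CD163, ITGAM and LYZ. All 4 hepatocyte markers and 4 of 8 fibroblast markers were under 1 CPM throughout. The fibroblast list summed to 19.0 to 29.4 CPM in the controls and 10.9 to 18.6 CPM in the libraries labelled knockdown. LUM made up the lower sum, at 11.9 ± 4.71 and 1.90 ± 0.685 CPM (log2 fold change -2.64, adjusted p 0.0558 by edgeR and 2.31e-09 by DESeq2), while COL1A1 averaged 5.82 ± 0.621 and 6.66 ± 2.76 CPM and COL3A1 3.94 ± 1.74 and 4.82 ± 4.43 CPM. The 8 HEK293 markers were all present, and their sum ran from 1.54e+03 to 1.97e+03 CPM in the controls and from 1.94e+03 to 2.68e+03 CPM in the libraries labelled knockdown. VIM, the intermediate filament vimentin, made up most of the higher sum, at 805 ± 123 and 1277 ± 255 CPM (log2 fold change 0.67, adjusted p 0.120 by edgeR and 0.0235 by DESeq2). NEFL averaged 160.4 ± 6.01 and 125 ± 8.80 CPM, LHX1 11.2 ± 1.18 and 6.54 ± 2.01 CPM, and PAX2 1.44 ± 0.209 and 1.25 ± 0.309 CPM. KRT8 averaged 330 ± 68.9 and 376 ± 147 CPM, KRT18 156 ± 21.6 and 171 ± 71.7 CPM, and NEFM 50.2 ± 28.2 and 53.5 ± 13.1 CPM. CDH2 averaged 242 ± 28.6 and 223 ± 41.3 CPM. Groups overlapped in KRT8, KRT18, NEFM, CDH2 and PAX2. The part of these marker genes in the results was not tested.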

How the data were processed

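Total RNA of HEK293 cells was sequenced after ribosomal RNA removal with a stranded kit, per the labels' protocols. The authors deposited raw read counts per Ensembl gene for 6 libraries. The tools were TopHat2 2.0.13, bcl2fastq 2.18 and HTSeq, on build hg38, per the submitters' processing notes. For the HTSeq version, the annotation release and the strand setting: not given in the sources used here.

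Library sizes and tests leave out the 5 special HTSeq rows. Of these, reads outside genes were 21.5% to 37.5% of uniquely aligned reads per library, and assigned reads numbered 17958632 to 22171106. Symbols, coordinates and exon lengths came from GENCODE release 29 (GRCh38) by Ensembl identifier, with 57055 of 60675 genes matched. The test was that of edgeR 4.0.16 under R 4.3.3 (TMM, filterByExpr, quasi-likelihood F test, two-sided, Benjamini-Hochberg over 18267 genes, threshold 0.05). Overlap between groups was judged on log2 CPM with a prior count of 2. All 41 members and 96 pathway genes were matched by symbol.

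On counts simulated for this comparison over 17907 tested genes, 64% of genes changed by a log2 fold of 1 and 98% of those changed by 2 were recovered, with 12 false calls. Replicate pairs differed by more than sampling noise (chi-square per degree of freedom 6.43 to 11 in control pairs and 22.3 to 36.9 in knockdown pairs). The simulation gave each gene the same spread in both groups. Its recovery rates therefore do not give the power of the test in the real libraries. Members and lists were chosen with earlier results of these data known. Values in every library are given for the 3 members of smallest p and the most abundant per kilobase in each role group, the TFEB family, and others added after their values were seen. For pathway lists, the rule named the 2 genes of smallest p in each direction. Alternatives were DESeq2 1.42.0, limma 3.58.1 voom, other scaling and filters, protein-coding genes only, the replicate block and leaving out each library.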

Additional observations from a re-analysis of the deposited data

Results flagged for a closer look

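Reads outside annotated genes, which the comparisons do not use, made up 37.5% of uniquely aligned reads in knockdown 2, above the 23.6% to 25% of the 3 controls.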

How the results depend on the processing

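The members' median log2 fold change was negative under all 14 alternatives. It stayed within the spread between libraries in all of them except without knockdown 3, and leaving out 1 library gave -0.51 to -0.27. The median over all genes moved from 0.02 to 0.12 with no filter, where 43251 genes were tested. The number of members called lower by edgeR was 5 with no filter and 4 by DESeq2, and 0 to 14 over the leave-one-out fits, with 14 reached only without knockdown 3. Members lower at an unadjusted p under 0.05 numbered 9 to 24 over the leave-one-out fits, and members higher 0 to 2, with 0 with no filter or the replicate block and 1 by DESeq2 or with protein-coding genes only. Members wholly above the controls numbered 2 to 4, where 12.5% of all tested genes lay wholly above them with all 6 libraries. Of the pathway genes, edgeR called 11 lower and 1 higher with no filter, DESeq2 6 lower and 1 higher, and the leave-one-out fits 0 to 19 lower and 0 to 1 higher. At an unadjusted p under 0.05 the leave-one-out fits gave 10 to 35 lower and 1 to 5 higher, and 1 was higher with no filter or with at least 1 CPM in 3 libraries. The shares of all genes moved between fits as well. At an unadjusted p under 0.05, 6.32% were lower and 6.08% higher without knockdown 1. With all 6 libraries the shares were 10.6% and 9.93%, and without knockdown 3 they were 16.4% and 14.7%. At the adjusted threshold, edgeR called 8.3% lower and 6.46% higher without knockdown 3. The causes were not tested.

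Among the members, the other pathway genes named by the rule and MOCS2, the sign of the log2 fold change turned in those given here. MOCS2 was 0.0095 with upper-quartile factors and 0.0095 with protein-coding genes only. ATP6V0A1 was 0.0002 with DESeq2 size factors or by DESeq2, 0.0205 with upper-quartile factors, 0.0023 with at least 1 CPM in 3 libraries and 0.0172 with protein-coding genes only. Over the leave-one-out fits the log2 fold change ran from -0.0941 to 0.0267 for MOCS2, -0.0798 to 0.0801 for ATP6V0A1, -0.0019 to 0.2481 for ARSB, -0.0921 to 0.1812 for PPT1, -0.4374 to 0.1256 for TPP1, -0.1938 to 0.0391 for LGMN, -0.1447 to 0.0111 for SCARB2, -0.0901 to 0.2385 for ATP6V1B2, -0.0329 to 0.0839 for TFE3 and -0.0280 to 0.1659 for M6PR. Without knockdown 2, the median log2 fold change, other proton pump subunits, was 0.0115, and the median log2 fold change, control of TFEB on the lysosome, was 0.0263.

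The labels do not say whether replicate numbers pair the samples, and so few libraries could not settle it. The deviations of same-numbered libraries correlated at 0.114, -0.167 and -0.125. Control 1 correlated best with knockdown 1, and control 2 and 3 correlated best with another number. With the replicate block, edgeR called 6 genes higher and 13 lower over all genes and 0 members. Depth limits the low genes most, such as IDUA with as few as 47 reads in a library.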
